A study of Homo sapiens with 12 samples.

Results

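ABCA1 and 7 other genes of the liver X receptor (LXR) pathway were followed across RNA-seq libraries of MOLM-13, an established human acute myeloid leukemia (AML) cell line. The 8 genes were ABCA1, ABCG1, MYLIP, SREBF1, LPCAT3 and SMPDL3A, which are known LXR targets, and NR1H3 and NR1H2, which encode the receptors themselves. They were chosen by gene name from a table of 57353 gene names, with earlier results of the same counts known. Because measured values were in view when they were chosen, the levels and differences of the 8 genes are a description and carry no test. Of the 8, 7 passed the filter on low counts that 12998 gene names passed, a mean count of at least 1 and a mean of at least 1 CPM (reads on a gene scaled to a common library total) over the 12 libraries. ABCG1 did not pass it.

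The cells carry FLT3-ITD, an activating duplication in the receptor kinase FLT3, and the labels give no engineered genotype. They were treated for 15 hr with DMSO as vehicle or with 3 nM quizartinib, also named AC220, an inhibitor of FLT3. Each treatment was given in RPMI, the regular medium with serum, or in hBMSC-CM, RPMI mixed with medium in which HS-5 cells, a human stromal line from bone marrow, had grown. This gave 4 groups of 3 libraries each, and no stromal cell was in the culture by design. The stromal medium came from 1 cell line, HS-5, and the AML cells from 1 cell line. The labels number the replicates without saying how the cultures were kept apart, while the study's reporting checklist calls its replicates biological. Errors and p-values measure the spread between these libraries.

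LXRα, encoded by NR1H3, and LXRβ, encoded by NR1H2, are nuclear receptors that are switched on by oxysterols. They bind DNA as heterodimers with an RXR receptor, at paired half-sites separated by a short spacer, and hold corepressors on their target genes in the absence of a ligand. Their targets move cholesterol out of the cell, limit its uptake and remodel lipids, and in myeloid cells ABCA1 and ABCG1 are the standard readouts of the pathway. ABCA1 is the membrane transporter that loads cholesterol and phospholipid onto apolipoprotein A-I, and ABCG1 passes cholesterol on to mature HDL particles. MYLIP is a ubiquitin ligase, also called IDOL, that lowers the uptake of lipoprotein cholesterol. SREBF1 encodes SREBP-1, the transcription factor of fatty acid synthesis, LPCAT3 inserts polyunsaturated chains into lysophospholipids, and SMPDL3A is a secreted phosphodiesterase.

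ABCA1 lies on chromosome 9, at chr9:104781006-104928155 on the minus strand of GRCh38. The 250 bases before its RefSeq start, chr9:104928156-104928405 (GRCh38.p14, gene strand, 5′ to 3′), are printed because ABCA1 is the gene that moved most and because they hold a site of the kind that LXR binds. The capitals mark that site.
ABCA1 upstream: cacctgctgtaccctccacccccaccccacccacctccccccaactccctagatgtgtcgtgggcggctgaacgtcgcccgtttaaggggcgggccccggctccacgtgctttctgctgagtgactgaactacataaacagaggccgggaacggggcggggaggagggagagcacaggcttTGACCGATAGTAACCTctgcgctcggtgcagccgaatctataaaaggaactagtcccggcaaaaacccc
The site was found by a search for 2 copies of AGGTCA in the same direction with 4 bases between them, on both strands, with at most 2 mismatches in the half-sites. It spans 16 bases from position -69 to position -54 relative to the start, chr9:104928209-104928224, and is read on the strand opposite to the gene.
ABCA1 DR4-like site, other strand: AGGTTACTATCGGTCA
Against AGGTCA, and counting from 1 at the 5′ end of each half-site, the first half-site differs by C5T and the second by A1C. Such a match is a description of letters and not of binding. It was present in 822 of 35116 RefSeq windows of 300 bases (2.34%), while 72 windows (0.205%) held a match with at most 1 mismatch and 7 windows (0.0199%) an exact one. The ABCA1 window also held CACGTG, the E-box sequence, at positions -147 to -142, a match that 7.26% of windows share, and TATAAA at positions -31 to -26, which 7.33% share. RefSeq windows were at hand for 6 of the 8 genes, ABCA1, NR1H3, NR1H2, MYLIP, SREBF1 and LPCAT3, and among them only the ABCA1 window held the paired half-sites at this number of mismatches. For the other windows this says only that these letters are not in the bases searched.

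ABCA1 was lowest with vehicle in RPMI, higher with quizartinib in RPMI, higher again with vehicle in hBMSC-CM, and highest when quizartinib was given in hBMSC-CM. In RPMI it was 2.84, 4.11 and 3.04 CPM with vehicle (83, 105 and 66 reads) and 16.8, 16.1 and 14.6 CPM with quizartinib. In hBMSC-CM it was 24.6, 22.4 and 22.4 CPM with vehicle and 46.3, 49.3 and 48.3 CPM with quizartinib (1322, 1122 and 1030 reads). No library of one group reached the values of a neighbouring group, so the 4 groups formed an unbroken order. The group means were 3.33 ± 0.681, 15.8 ± 1.13, 23.1 ± 1.26 and 47.9 ± 1.49 CPM (SD, n = 3) in that order. CPM values are scaled by TMM factors, which correct for differences in composition between libraries.

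The fitted fold change of ABCA1 was larger for the medium than for the drug when both were taken from vehicle in RPMI, and likewise when both were taken up to quizartinib in hBMSC-CM. With quizartinib the ABCA1 level was 4.76-fold higher in RPMI (log2 fold change 2.25, SE 0.106) and 2.06-fold higher in hBMSC-CM (1.05, SE 0.071). In hBMSC-CM it was 6.97-fold higher than in RPMI with vehicle (2.80, SE 0.102) and 3.02-fold higher with quizartinib (1.60, SE 0.0739). The interaction, the quizartinib effect in hBMSC-CM minus that in RPMI on the log2 scale, was -1.21 (SE 0.132). Because comparisons in the same medium or with the same treatment share libraries, their values are set side by side and are not independent.

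The direction of that interaction depended on the scale. In CPM, the quizartinib effect on ABCA1 was 12.5 ± 0.760 (SE) in RPMI and 24.8 ± 1.13 (SE) in hBMSC-CM, a difference of 12.4 ± 1.36 (SE), so the added level was larger in hBMSC-CM while the fold was smaller. With both single treatments added to the vehicle level in RPMI, a sum of effects would give 35.6 CPM and a product of folds 109.6 CPM. The measured 47.9 CPM lay between them. Without replicate 2 of vehicle in RPMI, the highest of the 3 baseline libraries, the log2 values were 2.43 for quizartinib in RPMI, 2.98 for hBMSC-CM with vehicle and -1.39 for the interaction. In such bulk libraries, more cells that express ABCA1 and more ABCA1 RNA per cell cannot be told apart.

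**Figure D1:**
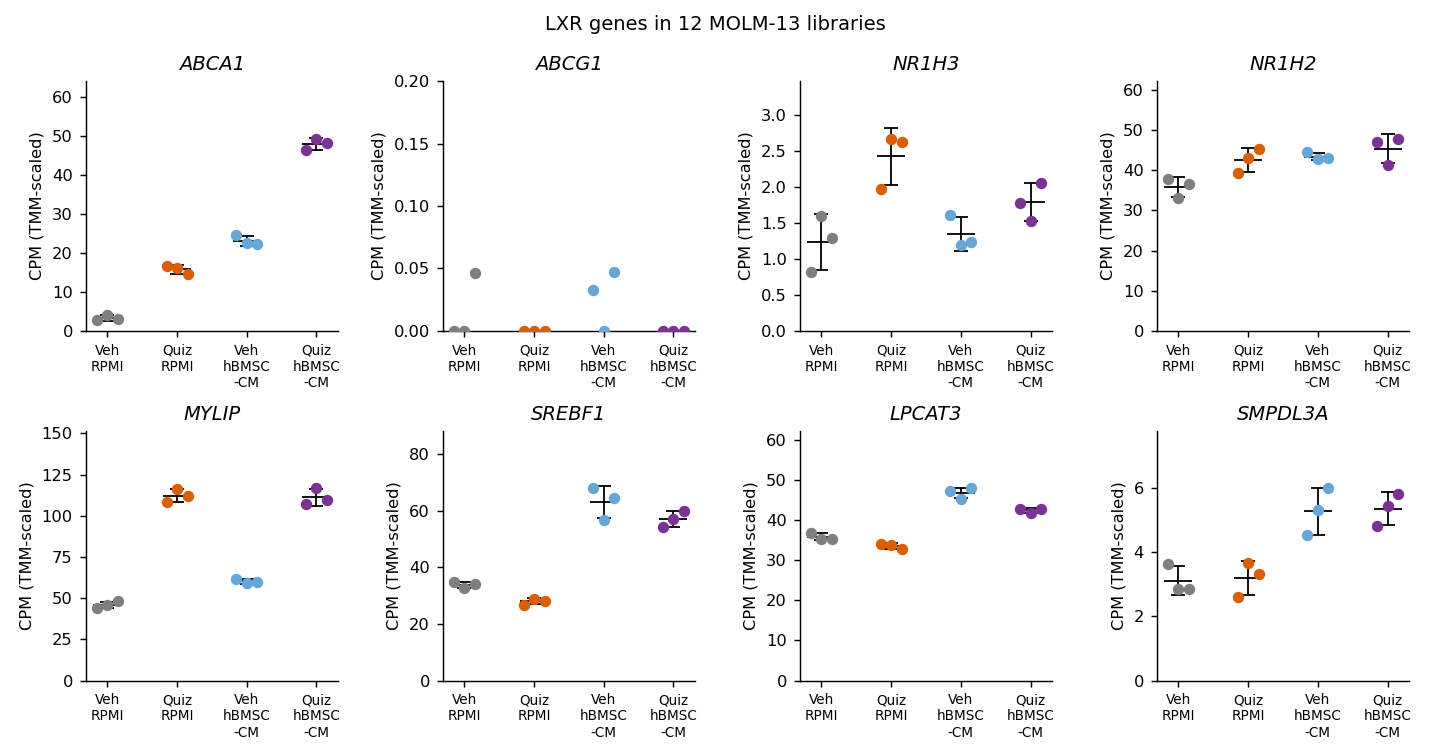
Level of each of the 8 genes in CPM (y axis, linear, from 0, scaled per panel) in the 4 groups (x axis), with a point for each library and bars for the mean and SD of 3 libraries (none for ABCG1, whose counts are nearly all 0). ABCA1 climbs in 4 separate steps, MYLIP is about equally high in both quizartinib groups, and SREBF1, LPCAT3 and SMPDL3A sit higher in both hBMSC-CM groups.

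ABCG1 (chr21:42199689-42297244, plus strand), the partner of ABCA1 in efflux, was nearly silent. It had 3 reads over all 12 libraries, 1 in each of 3 libraries (vehicle in RPMI replicate 3, and vehicle in hBMSC-CM replicates 1 and 3). The other 9 libraries, with all 6 quizartinib libraries among them, had 0 reads. With 0 reads a level of up to 0.0951 to 0.15 CPM cannot be seen, depending on the library, a limit that covers counting error only. No group was at a level from which a difference could be detected, and no fold is given. ABCG1 was thus at or under this floor in each of the 4 groups, over which ABCA1 ranged from 2.84 to 49.3 CPM.

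NR1H3 (chr11:47248300-47269033, plus strand), the gene of LXRα, was close to the filter, with 24 to 77 reads per library. It was 0.821, 1.60 and 1.29 CPM with vehicle and 1.98, 2.68 and 2.64 CPM with quizartinib in RPMI. In hBMSC-CM it was 1.62, 1.20 and 1.23 CPM with vehicle and 1.79, 1.54 and 2.06 CPM with quizartinib. Quizartinib in RPMI lay above vehicle in RPMI without overlap, while each pair of neighbours in the order of the 4 means overlapped. The log2 fold change with quizartinib was 0.99 (SE 0.215) in RPMI and 0.37 (SE 0.227) in hBMSC-CM, and that of hBMSC-CM against RPMI was 0.18 (SE 0.243) with vehicle, a value whose sign changed when single libraries were left out. With quizartinib, NR1H3 was at -0.44 (SE 0.201) in hBMSC-CM against RPMI, so the gene of LXRα was not highest where ABCA1 was highest.

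NR1H2 (chr19:50329653-50383388, plus strand), the gene of LXRβ, was the more abundant receptor in all 4 groups and varied little. It was 37.9, 33.1 and 36.6 CPM with vehicle and 39.4, 43.0 and 45.2 CPM with quizartinib in RPMI. Under hBMSC-CM the values were 44.4, 42.8 and 43.0 CPM with vehicle and 47.1, 41.2 and 47.8 CPM with quizartinib. Vehicle in RPMI lay below the other 3 groups, which overlapped. The log2 fold changes were 0.24 (SE 0.0664) and 0.28 (SE 0.0666) for quizartinib in RPMI and for hBMSC-CM with vehicle, and 0.06 (SE 0.0656) and 0.10 (SE 0.0655) for quizartinib in hBMSC-CM and hBMSC-CM with quizartinib. Per kilobase of exon, the mean NR1H2 level was 6.72 to 8.5 CPM and that of NR1H3 0.273 to 0.536 CPM over the groups.

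MYLIP (chr6:16129086-16148248, plus strand), the ubiquitin ligase, moved with the drug. It was 43.9, 45.8 and 48.0 CPM with vehicle and 108.2, 116.0 and 112.1 CPM with quizartinib in RPMI. The hBMSC-CM libraries had 61.5, 59.2 and 59.7 CPM with vehicle and 107.1, 116.6 and 109.6 CPM with quizartinib. The vehicle groups were separate from each other and from the quizartinib groups, while the 2 quizartinib groups overlapped fully in range. Its fold change with quizartinib was 2.44 in RPMI (log2 1.29, SE 0.0477) and 1.84 in hBMSC-CM (0.88, SE 0.047). The medium gave 0.39 (SE 0.0493) on the log2 scale with vehicle and -0.01 (SE 0.0451) with quizartinib, and the sign of the latter changed without the filter on low counts. In CPM the drug effect on MYLIP was 66.1 ± 2.54 (SE) in RPMI and 50.9 ± 2.93 (SE) in hBMSC-CM, so here the added level and the fold were both smaller in hBMSC-CM, whereas for ABCA1 only the fold was.

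SREBF1 (chr17:17810399-17837002, minus strand) moved with the medium. It was 34.8, 32.7 and 34.1 CPM with vehicle and 26.8, 29.0 and 28.3 CPM with quizartinib in RPMI. In hBMSC-CM it was 67.9, 56.9 and 64.4 CPM with vehicle and 54.2, 56.9 and 59.8 CPM with quizartinib. Both hBMSC-CM groups lay above both RPMI groups, and within hBMSC-CM the treatments overlapped. The fold change of hBMSC-CM against RPMI was 1.87 with vehicle (log2 0.90, SE 0.0622) and 2.03 with quizartinib (1.02, SE 0.0638). With quizartinib the log2 change was -0.27 (SE 0.0659) in RPMI and -0.15 (SE 0.0599) in hBMSC-CM, the opposite sign to ABCA1 and MYLIP. The counts add up the isoforms of SREBP-1, of which LXR controls the form called SREBP-1c, and cannot tell them apart.

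LPCAT3 (chr12:6976185-7018477, minus strand) had the same order of groups as SREBF1 with smaller steps. It was 36.8, 35.2 and 35.3 CPM with vehicle and 34.1, 33.7 and 32.8 CPM with quizartinib in RPMI. In hBMSC-CM it was 47.1, 45.2 and 47.8 CPM with vehicle and 42.7, 41.7 and 42.7 CPM with quizartinib. No neighbouring groups overlapped, and the hBMSC-CM groups were the higher ones. The medium gave log2 fold changes of 0.38 (SE 0.049) with vehicle and 0.34 (SE 0.0497) with quizartinib, and the drug gave -0.09 (SE 0.0501) in RPMI, a sign that changed under upper-quartile scaling, and -0.14 (SE 0.0486) in hBMSC-CM.

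SMPDL3A (chr6:122789049-122809720, plus strand) was low and also followed the medium. It was 3.62, 2.86 and 2.86 CPM with vehicle and 2.6, 3.65 and 3.32 CPM with quizartinib in RPMI. Libraries from hBMSC-CM had 4.52, 5.31 and 5.98 CPM with vehicle and 4.80, 5.44 and 5.81 CPM with quizartinib. The media were separate and the treatments overlapped in each medium. Its log2 fold change for hBMSC-CM against RPMI was 0.73 with vehicle (SE 0.15) and 0.73 with quizartinib (SE 0.149). The drug gave 0.03 in both media (SE 0.162 in RPMI and 0.138 in hBMSC-CM), values within their own errors whose signs changed when single libraries were left out.

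**Figure D2:**
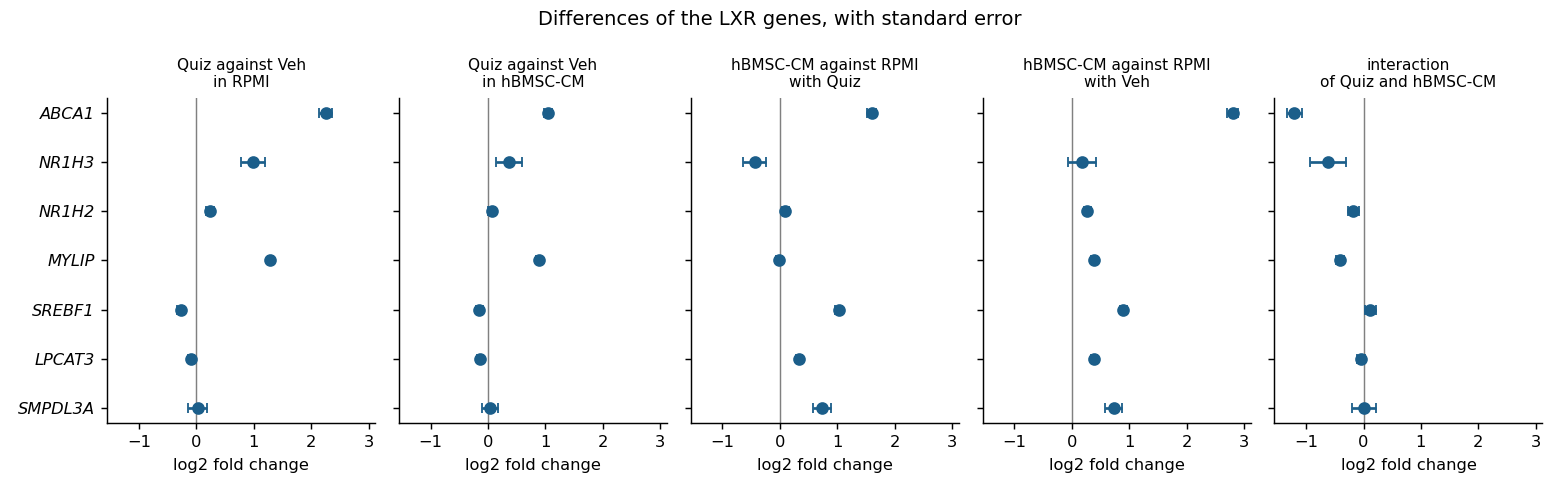
Fitted log2 fold change (x axis) of the 7 genes past the filter (y axis) in the 4 comparisons and the interaction, with bars of 1 SE. ABCA1 is to the right of 0 in all 4 comparisons and at -1.21 for the interaction, MYLIP is at 1.29 and 0.88 with quizartinib but near 0 for hBMSC-CM with quizartinib, and SREBF1 is at -0.27 and -0.15 with quizartinib but at 0.90 and 1.02 with hBMSC-CM.

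Counted over the 7 genes past the filter, quizartinib in RPMI left 4 genes above vehicle without overlap (ABCA1, NR1H3, NR1H2 and MYLIP), 2 below (SREBF1 and LPCAT3) and SMPDL3A overlapping. Over all tested genes 81.1% were without overlap in this comparison, and 6 of the 7 is close to that share. With quizartinib in hBMSC-CM, ABCA1 and MYLIP lay above vehicle, LPCAT3 below, and 4 genes overlapped, against 68.4% of all genes without overlap. For hBMSC-CM against RPMI, 6 of the 7 genes lay higher with vehicle (all but NR1H3, which overlapped) and none lower, against 44.6% of all genes without overlap in either direction. With quizartinib 4 lay higher (ABCA1, SREBF1, LPCAT3 and SMPDL3A), none lower and 3 overlapped, against 71.5% of all genes.

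The 7 genes split by which factor carried their variation. Of the variation of log2 CPM over the 12 libraries, the drug carried 93.4% for MYLIP, 57.6% for NR1H3 and 34.1% for ABCA1. The medium carried 93.3% for SREBF1, 88.5% for LPCAT3, 83.9% for SMPDL3A and 60.7% for ABCA1. ABCA1 thus had sizeable shares from both, with 4.42% for the interaction and 0.804% for the spread between replicates. For NR1H2 the shares were 26.2% drug, 38.3% medium and 26.1% replicates, and for NR1H3 the replicates carried 30.0%. The medians over all tested genes were 55.6% for the drug, 17.5% for the medium, 5.61% for the interaction and 8.75% for replicates.

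**Figure D3:**
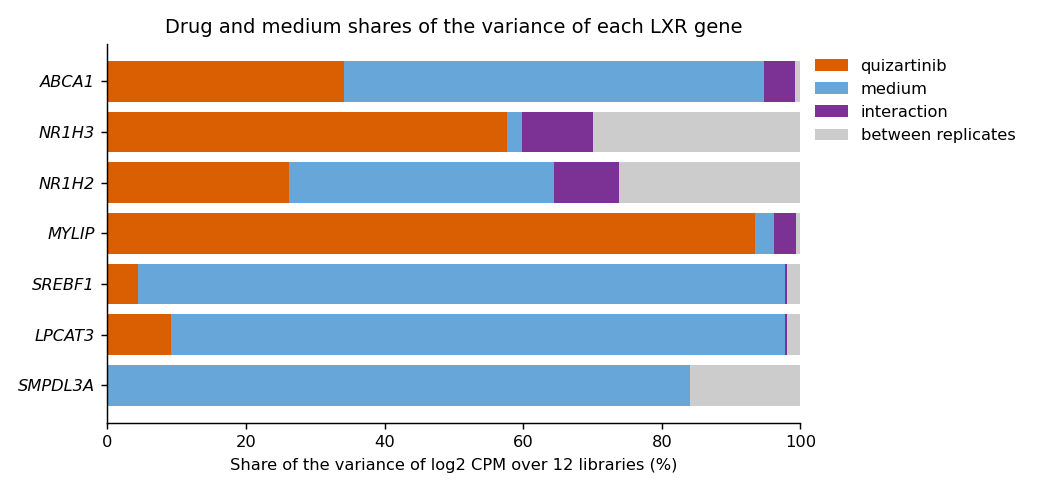
Share of the variation of log2 CPM over 12 libraries, in percent (x axis), that falls to the drug, the medium, their interaction and the spread between replicates, for the 7 genes past the filter (y axis). MYLIP is nearly all drug (93.4%), SREBF1 nearly all medium (93.3%), and ABCA1 is shared at 34.1% and 60.7%.

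Over the 12 libraries the log2 CPM of ABCA1 had a Pearson correlation of 0.81 with NR1H2, 0.73 with MYLIP, 0.72 with SMPDL3A, 0.61 with SREBF1, 0.57 with LPCAT3 and 0.42 with NR1H3. SREBF1 and LPCAT3 had 0.98, SREBF1 and SMPDL3A 0.89, and MYLIP and SREBF1 -0.05. These are descriptions over libraries that share 4 group means, so they carry no p. Out of 9287 genes whose mean reached 10 CPM, the 5 most like ABCA1 were CD38 (0.995), an ectoenzyme that consumes NAD, CYTIP (0.986), CPD (0.981), a carboxypeptidase, CHI3L1 (0.979), a secreted glycoprotein, and SCAMP1 (0.966). CD38 stood at 7.25 ± 0.414, 14.4 ± 0.342, 17.7 ± 0.790 and 23.1 ± 1.06 CPM (SD, n = 3) in the ascending order of groups of ABCA1. CHI3L1 stood at 36.2 ± 1.68, 67.96 ± 0.976, 93.3 ± 6.64 and 155.6 ± 6.19 CPM in the same order. Among the least alike were ANAPC15 (-0.974) and CD164 (-0.974). With Spearman's rank correlation none of the 5 most like genes was named again.

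**Figure D4:**
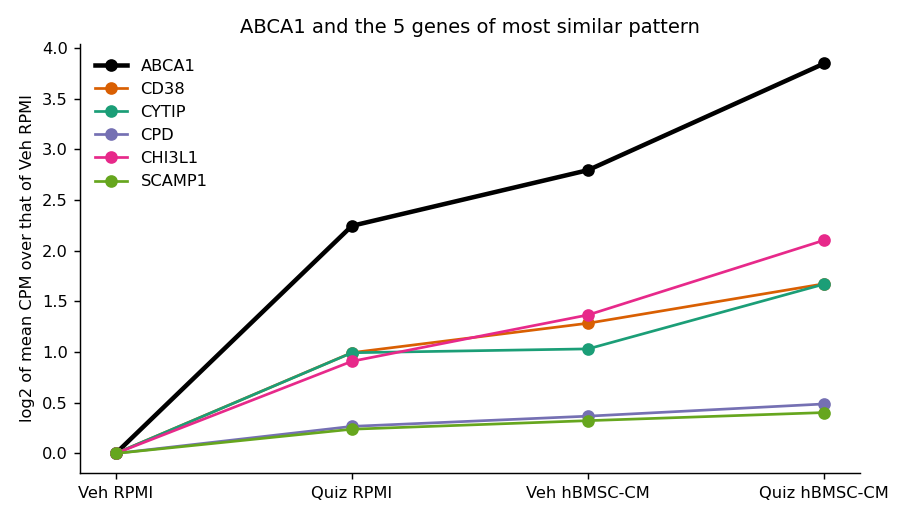
Log2 of the group mean CPM over the mean with vehicle in RPMI (y axis) for ABCA1 and the 5 genes most like it, in the 4 groups (x axis), joined by lines as a guide and without error bars. The 5 genes climb in the same group order as ABCA1 with smaller steps, and CPD and SCAMP1 have the smallest total climb.

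The partners of LXR were tested in the fit across all genes with edgeR's quasi-likelihood test, and a gene is said to have risen or fallen when its Benjamini-Hochberg adjusted p over the 12998 genes was under 0.05. RXRA, the main partner in myeloid cells, was 51.4 ± 3.15 and 100.3 ± 8.39 CPM with vehicle and quizartinib in RPMI and 46.1 ± 2.84 and 69.6 ± 2.82 CPM in hBMSC-CM (SD, n = 3). It rose with quizartinib in RPMI (log2 0.96, SE 0.0607, edgeR adjusted p = 4.38e-12) and in hBMSC-CM (0.59, SE 0.0627, edgeR adjusted p = 4.94e-08), and it fell in hBMSC-CM against RPMI with quizartinib (-0.53, SE 0.0596, edgeR adjusted p = 1.06e-07). RXRB rose with quizartinib in RPMI (0.38, SE 0.0484) and stood at 0.04 (SE 0.0494, edgeR adjusted p = 0.528) in hBMSC-CM. Of the 18 tested partners and coregulators, 12 rose and 1 fell with quizartinib in RPMI, against 40.1% and 39.2% of all tested genes, and 10 rose and 1 fell in hBMSC-CM, against 33.4% and 33.7%. Their median log2 changes were 0.34 and 0.17, against 0.02 and 0.01 over all genes.

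Of the coactivators in that list, NCOA3 and CREBBP rose with the drug and fell with the medium, and PPARGC1B went the other way with quizartinib. NCOA3, a steroid receptor coactivator, rose with quizartinib from 145.1 ± 4.71 to 400.7 ± 5.02 CPM in RPMI (log2 1.47, SE 0.05) and by 0.75 on the log2 scale (SE 0.0504) in hBMSC-CM. In hBMSC-CM against RPMI, NCOA3 fell by 0.25 with vehicle (SE 0.0507) and by 0.96 with quizartinib (SE 0.0492). CREBBP, a histone acetyltransferase, rose with quizartinib by 0.97 (SE 0.0788) and 0.37 (SE 0.0811), and fell in hBMSC-CM against RPMI by 0.23 with vehicle (SE 0.0812) and by 0.83 with quizartinib (SE 0.0785). PPARGC1B, a coactivator of nuclear receptors, fell with quizartinib by 0.99 in RPMI (SE 0.0597) and by 0.33 in hBMSC-CM (SE 0.057). In hBMSC-CM against RPMI it rose by 0.80 with quizartinib (SE 0.0604, edgeR adjusted p = 1.89e-10) and stood at 0.14 with vehicle (SE 0.0563, edgeR adjusted p = 0.0649). In hBMSC-CM against RPMI, 2 of the 18 rose and 12 fell with quizartinib, against 35.5% and 34.3% of all genes, and 1 rose and 6 fell with vehicle, against 16.6% and 15.5%. The interaction was higher for 1 and lower for 7, against 26.1% and 19.2%.

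Among 16 tested of 27 listed other LXR targets, most rose with the medium and the drug moved them both ways. In hBMSC-CM against RPMI 10 rose and 2 fell with vehicle (median log2 0.31), against 16.6% and 15.5% of all tested genes, and 11 rose and 3 fell with quizartinib (median 0.58), against 35.5% and 34.3%. With quizartinib 6 rose and 9 fell in RPMI (median -0.30), against 40.1% and 39.2%, and 4 rose and 8 fell in hBMSC-CM (median -0.13), against 33.4% and 33.7%. That last median was -0.02 with library size only and -0.05 with upper-quartile factors, with 5 higher and 7 lower under both. The genes that fell with the drug held lipogenic enzymes that SREBP-1 also controls. SCD, FASN, ACACA, PNPLA3, FADS1, FADS2 and ELOVL5 all fell with quizartinib in RPMI and all rose in hBMSC-CM against RPMI with quizartinib. Apart from them, only PLTP and RNF145 fell with quizartinib in RPMI, and the 6 that rose were all among the rest. In hBMSC-CM against RPMI with quizartinib, the other rises were APOC1, APOC2, PLTP and RNF145, and the falls were EEPD1, TMEM135 and LIMA1. FASN, the fatty acid synthase, was 434.0 ± 21.0, 107.1 ± 11.02, 573.8 ± 41.7 and 328.8 ± 24.4 CPM with vehicle and quizartinib in RPMI and then in hBMSC-CM (SD, n = 3). Its log2 change with quizartinib was -2.02 in RPMI (SE 0.0705, edgeR adjusted p = 1.88e-16) and -0.80 in hBMSC-CM (SE 0.0669, edgeR adjusted p = 1.28e-09). SCD, the stearoyl-CoA desaturase, fell by 1.20 (SE 0.0442) and 0.53 (SE 0.0426), and FADS1, a desaturase of polyunsaturated fatty acids, by 1.49 (SE 0.0451) and 0.78 (SE 0.0426). ABCA1 and these enzymes therefore moved in opposite directions with the drug and in the same direction with the medium, in which FASN rose by 0.40 with vehicle (SE 0.0664), SCD by 0.73 (SE 0.0427) and FADS1 by 0.37 (SE 0.0419).

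EEPD1, APOE and APOC1 were listed targets that rose with the drug in both media, and PLTP fell. EEPD1, an endonuclease family protein tied to ABCA1 activity, rose from 21.0 ± 1.21 to 62.7 ± 2.05 CPM with quizartinib in RPMI (log2 1.57, SE 0.0571) and by 0.98 (SE 0.0638) in hBMSC-CM, but fell in hBMSC-CM against RPMI (-0.52 with vehicle, SE 0.0656, and -1.11 with quizartinib, SE 0.0554). APOE, an acceptor of effluxed cholesterol, rose with quizartinib by 0.78 (SE 0.158) and 0.73 (SE 0.169) at means of 1.47 to 2.75 CPM, and APOC1, which lies near it, by 0.44 (SE 0.141) and 0.67 (SE 0.124). APOC1 was the one of these that also rose with the medium, by 0.50 with vehicle (SE 0.141) and 0.72 with quizartinib (SE 0.123). PLTP, the phospholipid transfer protein, fell with the drug (-0.28, SE 0.0699, and -0.30, SE 0.0668) and rose with the medium (0.40, SE 0.067, and 0.39, SE 0.0697). Among listed targets under the filter, LPL, ABCG8, APOC4 and TTC39B had no read in any library.

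Listed SREBP2 targets, genes of cholesterol synthesis and uptake with regulators such as SREBF2 and INSIG1, ran mostly opposite to ABCA1 under the drug. Of 24 tested SREBP2 targets, 2 rose and 18 fell with quizartinib in RPMI (median log2 -0.44), against 40.1% and 39.2% of all tested genes, and 1 rose and 13 fell in hBMSC-CM (median -0.20), against 33.4% and 33.7%. With library size only the latter became 4 higher and 10 lower (median -0.09), and with upper-quartile factors 3 and 12 (median -0.11). With the medium, 9 rose and 0 fell with vehicle (median 0.12), against 16.6% and 15.5%, and 16 rose and 2 fell with quizartinib (median 0.34), against 35.5% and 34.3%. DHCR7, the last reductase of cholesterol synthesis, fell with quizartinib by 1.60 (SE 0.0762) and 0.74 (SE 0.0641), and SQLE, the squalene epoxidase, by 1.05 (SE 0.044) and 0.29 (SE 0.0427). INSIG1, which retains the SREBP complex in the endoplasmic reticulum, fell by 0.16 in RPMI (SE 0.0596) and rose with the medium by 0.39 with vehicle (SE 0.0582). SREBF2, the gene of SREBP-2, rose with quizartinib in RPMI (0.45, SE 0.0536) and stood at 0.09 in hBMSC-CM (SE 0.0538, edgeR adjusted p = 0.165). TM7SF2, a sterol reductase, was among the few that rose, by 1.04 (SE 0.0995) and 0.79 (SE 0.105).

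The fatty acid synthesis list, which shares SCD, FASN, ACACA, PNPLA3, FADS1, FADS2 and ELOVL5 with the list of LXR targets, had 2 genes higher and 10 lower of 12 tested with quizartinib in RPMI (median log2 -0.80), against 40.1% and 39.2% of all tested genes. In hBMSC-CM it had 2 higher and 9 lower (median -0.40), against 33.4% and 33.7%. With the medium 9 rose and 1 fell with vehicle, against 16.6% and 15.5%, and 9 rose and 2 fell with quizartinib, against 35.5% and 34.3%. ELOVL6, a chain-elongating enzyme, fell with quizartinib from 33.7 ± 0.654 to 9.02 ± 0.190 CPM in RPMI (log2 -1.90, SE 0.0872), with a change of -0.43 in hBMSC-CM (SE 0.0729). ACSS2, which makes acetyl-CoA from acetate, rose by 1.55 (SE 0.0499) and 0.94 (SE 0.0513). The gene of SREBP-1 itself moved by -0.27 and -0.15 in these comparisons.

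**Figure D5:**
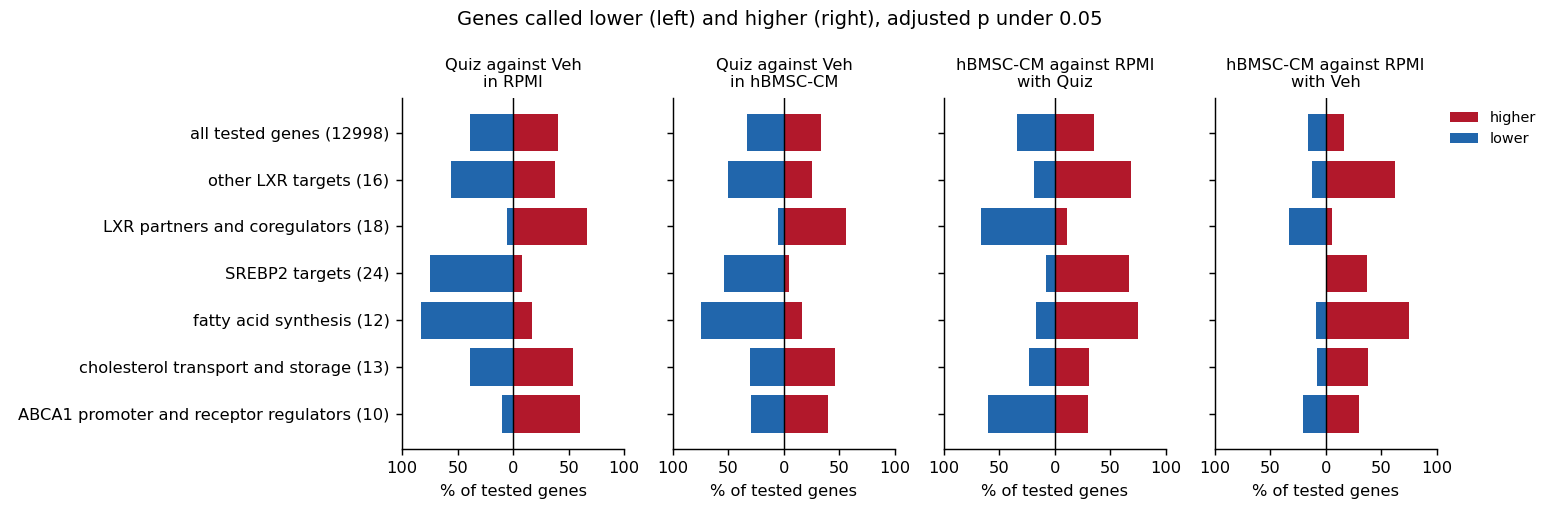
Share of the tested genes of 6 lists and of all 12998 tested genes (y axis) that rose (to the right) or fell (to the left), in percent (x axis), in the 4 comparisons, at an edgeR adjusted p under 0.05. SREBP2 targets and fatty acid synthesis point left with quizartinib and right with hBMSC-CM, and LXR partners and coregulators point the other way.

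Few genes that set the level of LXR ligands could be followed, since 2 of 10 listed oxysterol enzymes passed the filter. HSD3B7, which acts on 7α-hydroxylated sterols, climbed in quizartinib and in hBMSC-CM, from 2.04 ± 0.229 to 3.92 ± 0.233 CPM in RPMI and from 3.29 ± 0.459 to 7.72 ± 0.329 CPM in hBMSC-CM. It rose with the drug by 0.96 (SE 0.142) and 1.25 (SE 0.119) and with the medium by 0.67 with vehicle (SE 0.148) and 0.97 with quizartinib (SE 0.113).

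Other transcription factors known to act at ABCA1 or to feed into LXR were also counted. Of 10 tested, 6 rose and 1 fell with quizartinib in RPMI, against 40.1% and 39.2% of all tested genes. In hBMSC-CM 4 rose and 3 fell (3 and 3 with DESeq2 size factors), close to the 33.4% and 33.7% of all genes. In hBMSC-CM against RPMI 3 rose and 2 fell with vehicle, against 16.6% and 15.5%, and 3 rose and 6 fell with quizartinib, against 35.5% and 34.3%. ZNF202, a zinc finger repressor of ABCA1, fell with quizartinib from 28.3 ± 1.15 to 10.3 ± 0.762 CPM in RPMI (log2 -1.45, SE 0.0737) and by 0.35 in hBMSC-CM (SE 0.0673), while in hBMSC-CM against RPMI it stood at 0.00 with vehicle (SE 0.0653, edgeR adjusted p = 0.982) and rose by 1.11 with quizartinib (SE 0.076, edgeR adjusted p = 4.15e-11). PPARA, a fatty acid receptor, rose with quizartinib by 0.98 (SE 0.0768) and 0.55 (SE 0.0742) and with the medium by 0.46 with vehicle (SE 0.081), and stood at 0.03 in hBMSC-CM against RPMI with quizartinib (SE 0.0704, edgeR adjusted p = 0.671).

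No tested relative of ABCA1 rose in all 4 comparisons. Of 11 other full-length ABCA transporters 4 passed the filter, and 2 rose and 2 fell with quizartinib in RPMI, near the 40.1% and 39.2% of all tested genes. ABCA7, a phospholipid transporter, rose from 36.1 ± 0.930 to 128.0 ± 6.55 CPM in RPMI and from 31.7 ± 0.999 to 91.9 ± 4.99 CPM in hBMSC-CM, and fell in hBMSC-CM against RPMI by 0.18 with vehicle (SE 0.0562, edgeR adjusted p = 0.0173) and by 0.48 with quizartinib (SE 0.048). ABCA6 rose with quizartinib by 3.09 (SE 0.214) and 2.27 (SE 0.246) and stood at -0.03 in hBMSC-CM against RPMI with vehicle (SE 0.34, edgeR adjusted p = 0.953), and it fell there by 0.85 with quizartinib (SE 0.158, edgeR adjusted p = 7.33e-05). Among 10 tested paralogs of LPCAT3 and SMPDL3A, 3 rose and 7 fell with quizartinib in RPMI, against 40.1% and 39.2% of all genes, and 3 rose and 6 fell in hBMSC-CM, against 33.4% and 33.7%. LPCAT1 fell by 1.19 (SE 0.0548) and 0.53 (SE 0.0521), while LPCAT3 moved by -0.09 and -0.14. In the list of cholesterol transport and storage, with 13 tested, 7 rose and 5 fell with quizartinib in RPMI, against 40.1% and 39.2% of all genes, and 6 rose and 4 fell in hBMSC-CM, against 33.4% and 33.7%. With the medium 5 rose and 1 fell with vehicle, against 16.6% and 15.5%, and 4 rose and 3 fell with quizartinib (4 and 5 under upper-quartile scaling), against 35.5% and 34.3%. NPC1 and NPC2, which carry cholesterol out of lysosomes, rose with quizartinib in RPMI by 0.57 (SE 0.0568) and 0.67 (SE 0.0646).

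Library totals lay between 19966546 and 31546104 reads on genes, and the share on mitochondrial genes was 0.683% to 0.79% and 1.02% to 1.1% with vehicle and quizartinib in RPMI, and 0.458% to 0.613% and 0.683% to 0.947% in hBMSC-CM. Of 14 AML and myeloid markers, 10 passed the filter, with summed levels of 1184 to 1239, 1805 to 1816, 1453 to 1488 and 2159 to 2326 CPM in vehicle and quizartinib in RPMI and then in hBMSC-CM, while CD34, KIT, CD14 and CD68 did not pass it. CD14, a monocyte surface receptor, averaged 0.180 and 0.250 CPM in RPMI and 1.58 and 1.67 CPM in hBMSC-CM. LYZ, the lysozyme of monocytes and granulocytes, had its group means in the same order as ABCA1, at 275.5 ± 16.2, 354.2 ± 6.04, 503.4 ± 19.7 and 1009.8 ± 57.7 CPM, and its part in the result was not tested. The list as a whole did not go one way. Of the 10 tested, 5 rose and 5 fell with quizartinib in RPMI, against 40.1% and 39.2% of all tested genes. With quizartinib in hBMSC-CM 4 rose and 2 fell, against 33.4% and 33.7%. For hBMSC-CM against RPMI, 3 rose and 2 fell with vehicle, against 16.6% and 15.5%. With quizartinib 5 rose and 3 fell in that comparison, against 35.5% and 34.3%. ITGAM, an integrin of mature myeloid cells, fell with quizartinib in RPMI by 1.01 (SE 0.0878), and stood at 0.00 in hBMSC-CM (SE 0.0822, edgeR adjusted p = 0.994). Of 12 stromal markers, 3 passed the filter, and COL3A1, LUM, DCN, THY1 and POSTN had no read in any of the 12 libraries. The summed level of the 12 markers was 5.08 to 6.33 CPM with vehicle and 9.64 to 10.8 CPM with quizartinib in hBMSC-CM. In RPMI it was 6.84 to 7.59 and 15.7 to 19.7 CPM, higher than in hBMSC-CM with each treatment. The stromal sum was higher with quizartinib, as ABCA1 was, and COL1A1, a collagen chain, rose from 0.177 ± 0.0869 to 4.61 ± 0.248 CPM in RPMI and from 0.225 ± 0.0792 to 0.992 ± 0.143 CPM in hBMSC-CM, and its part in the result was not tested. Of 10 lymphoid and erythroid markers 3 had no read, and their sum was 14.7 to 18.4 CPM in RPMI and 20.9 to 29.4 CPM in hBMSC-CM. Nearly all of this sum was NKG7, the only 1 of the 10 past the filter. NKG7 averaged 16.8 and 15.9 CPM with vehicle and quizartinib in RPMI and 21.7 and 27.0 CPM in hBMSC-CM. With library size only in place of TMM, 62.8% of the genes that passed the test with quizartinib in hBMSC-CM were higher (60.0% with upper-quartile factors), against 49.8% with TMM. Exons of 4 of the 8 genes share bases with a gene on the opposite strand, and no source used here gives the strand setting of the counting: EMG1 covers 66% of the LPCAT3 exons, NAPSA 22.1% of NR1H2, RAI1 6.75% of SREBF1 and ACP2 4.17% of NR1H3. In the 4 comparisons in the order of quizartinib in RPMI and in hBMSC-CM and of hBMSC-CM with quizartinib and with vehicle, EMG1 moved by -1.27, -0.64, 0.72 and 0.09 on the log2 scale, and the share of its reads in LPCAT3 was not tested. ABCA1, ABCG1, MYLIP and SMPDL3A had no such overlap.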

How the data were processed

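Counts of poly-A-selected, paired-end RNA-seq were used for 12 MOLM-13 libraries, 3 in each of 4 groups taken from the labels. The authors trimmed adapters, aligned reads to the human Ensembl genome (hg38) with STAR (2.6.0a per the submitters' processing notes) and deposited raw counts per gene name, with identifiers of the same name added up. No column was without a sample (0). Strand use in the counting is not given in the sources used here, so overlapping genes are uncertain.

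Gene names whose means reached 1 count and 1 CPM were kept, scaled with TMM and fitted with edgeR 4.0.16 (glmQLFit, glmQLFTest) in R 4.3.3, with 4 group means in 1 model and 8 residual degrees of freedom. P-values were two-sided, adjusted by Benjamini-Hochberg over 12998 genes, with a threshold of 0.05, and a prior count of 2 was used for log2 CPM. The 8 genes and the lists were chosen with earlier results of these data known, and the lists come from general knowledge. The genes named were the 8, a fixed set of LXR and SREBP genes, the 2 largest rises and falls of each list, of which fewer are given, and the 5 most and 3 least like ABCA1. Some genes that this rule names are not reported here. EMG1, NAPSA, RAI1 and ACP2 were named for their overlap. Further genes of a list were named to show which genes made up its counts or its sum. The SE of a fitted log2 fold change is its absolute value divided by the square root of the F statistic of edgeR's test. The variance shares are sums of squares of log2 CPM. Motifs were searched in RefSeq windows (GRCh38.p14), and gene positions and exon lengths came from GENCODE, of the same build but another release than the authors' annotation. Scripts were tested on simulated counts. Replicates differed from each other beyond sampling noise (chi-square per gene 2.66 to 10.5). Alternatives were DESeq2 1.42.0 and limma 3.58.1 tests, other scalings and filters, the replicate number as a block, and each library left out. No batch is named in the labels.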

Additional observations from a re-analysis of the deposited data

Results flagged for a closer look

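The effect of quizartinib differed between RPMI and hBMSC-CM for 6 genes of the fixed set of LXR and SREBP genes reported here, by the interaction term of edgeR's quasi-likelihood test at an adjusted p under 0.05. The log2 interaction was negative, with the more positive drug effect in RPMI, for RXRA (-0.371), RXRB (-0.34) and SREBF2 (-0.359). It was positive for FASN (1.21), SCD (0.672) and FADS1 (0.705), which fell less with quizartinib in hBMSC-CM. Over all tested genes 26.1% had a positive and 19.2% a negative interaction at this threshold.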

How the results depend on the processing

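The number of genes past the threshold stayed within 1.5 times under every alternative that was run, in each of the 5 comparisons (7668 to 10097 for hBMSC-CM against RPMI with quizartinib, for example), as did the counts of other LXR targets. ABCA1 kept its sign in all 5. With each library left out in turn, its log2 values ranged from 2.14 to 2.43 for quizartinib in RPMI, from 1.02 to 1.10 for quizartinib in hBMSC-CM, from 2.69 to 2.98 for hBMSC-CM with vehicle, from 1.54 to 1.63 for hBMSC-CM with quizartinib and from -1.39 to -1.10 for the interaction. The outer values 2.43, 2.98 and -1.39 came without replicate 2 of vehicle in RPMI. Signs changed for small values, and the cause was not tested. The SMPDL3A interaction was -0.00257 with DESeq2 size factors, -0.0143 with upper-quartile factors, -0.00871 with the DESeq2 Wald test and -0.144 to 0.119 with a library left out. Without the filter on low counts SMPDL3A was -0.0786 and -0.000251 for quizartinib in RPMI and in hBMSC-CM, MYLIP was 0.0632 for hBMSC-CM with quizartinib, and the LPCAT3 interaction was 0.0236. LPCAT3 was 0.00884 for quizartinib in RPMI with upper-quartile factors. With a library left out, SMPDL3A ranged from -0.0933 to 0.170 and from -0.0872 to 0.130 for quizartinib in RPMI and hBMSC-CM, MYLIP from -0.0470 to 0.0159 for hBMSC-CM with quizartinib and NR1H3 from -0.0722 to 0.428 for hBMSC-CM with vehicle. NR1H3 and SMPDL3A were not tested with a mean of at least 5 CPM. Of the 5 genes most like ABCA1, 0 were among the 5 by Spearman's correlation, and 4 or 5 with a library left out. Library size only and upper-quartile factors moved the median log2 change of all genes with quizartinib in RPMI from 0.02 to 0.114 and 0.126, and library size only moved that in hBMSC-CM to 0.113.

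The labels give the groups the same replicate numbers, but of 18 pairs of same-numbered libraries 0 had deviations that correlated above 0.1 (-0.227 to 0.0979), and 0 of 12 libraries correlated best with their own number, so the numbers were not taken to pair the libraries. With the replicate number as a block, 10224 genes passed the threshold for quizartinib in RPMI, and ABCA1 had log2 values of 2.25 there and -1.21 for the interaction. Depth limits NR1H3, SMPDL3A, APOE and APOC1, at means of under 6 CPM, and leaves ABCG1 without a comparison. It also limits ABCA1 with vehicle in RPMI, at a mean of 3.33 CPM. That group is the base of the ABCA1 folds for quizartinib in RPMI and for hBMSC-CM with vehicle, and it enters the interaction. HSD3B7 and ABCA6 were low as well, at 2.04 and 0.538 CPM with vehicle in RPMI.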
